A study of Mus musculus with 18 samples.

Results

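Wild type brain was compared with wild type liver, gene by gene, in 3 libraries of each tissue, out of 18 libraries in the series. The members were chosen by label alone: every gene listed for the wild type (WT) brain libraries 1 to 3 and the WT liver libraries 1 to 3, 52636 genes in all. All 6 libraries came from adult male C57BL/6 mice aged 8 weeks, with no treatment named. No allele was named for them beyond the wild type genotype, and the rest of the series holds testis libraries and libraries labelled knockout (KO) for Pcgf6, a subunit of a Polycomb repressive complex. The labels give whole tissue names without a brain region or liver lobe, and they do not say whether libraries came from separate animals, so p-values measure the spread between these libraries. The question here was which genes, gene families and cell type programmes set adult brain apart from adult liver, and how far the ordinary machinery of the cell differed between them.

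Liver is built mostly of hepatocytes, which secrete the proteins of blood plasma, make urea, glucose, ketone bodies and bile, and detoxify drugs. Their identity genes are driven by factors that include HNF1, HNF4 and C/EBP. Brain holds neurons, which signal through ion channels, transmitter vesicles and receptors, together with astrocytes, oligodendrocytes that make myelin, and microglia. Outside neurons many neuronal genes are held silent by the repressor REST, which binds an element called RE1. In neurons the factor CREB acts through the cAMP response element, and several promoters active in many tissues carry NRF1 elements or GC boxes.

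Promoters of 4 genes with large differences are shown because each holds a short match to an element of this kind. They run from 250 bases before the start of the gene to 50 bases after it, and were taken from RefSeq sequences on GRCm38.p6. Capitals mark matches to the motifs searched on either strand, except the GC box. Fabp1, the fatty acid-binding protein of hepatocytes, lies at chr6:71199629-71199928 on the + strand and holds TATAAA 30 bases before its start. G6pc, the phosphatase that releases glucose from liver, lies at chr11:101367466-101367765 on the + strand and holds TTAATAATT, a match to part of the HNF1 element, 220 bases before its start and TATAAA 29 bases before it. Sst, which encodes the neuropeptide somatostatin, lies at chr16:23890795-23891094 on the - strand and holds the cAMP response element TGACGTCA 48 bases before its start. Syn1, a protein of the synaptic vesicle surface, lies at chrX:20920869-20921168 on the - strand. It holds CGCATGCGC, which reads as the NRF1 part on the other strand, 250 bases before its start, TTCAGCACC of RE1 232 bases before it and TGACGTCA 159 bases before it. Fabp1 and Sst came from the rule for named genes, which also returned Apoa2 with TATAAA 212 bases before its start; G6pc and Syn1 were chosen after their values were seen.
Fabp1: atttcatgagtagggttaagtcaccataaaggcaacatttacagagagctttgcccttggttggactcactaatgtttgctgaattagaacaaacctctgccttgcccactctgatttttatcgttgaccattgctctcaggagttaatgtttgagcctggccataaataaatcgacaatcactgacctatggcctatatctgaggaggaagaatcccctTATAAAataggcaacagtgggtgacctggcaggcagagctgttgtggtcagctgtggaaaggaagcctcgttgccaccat
G6pc: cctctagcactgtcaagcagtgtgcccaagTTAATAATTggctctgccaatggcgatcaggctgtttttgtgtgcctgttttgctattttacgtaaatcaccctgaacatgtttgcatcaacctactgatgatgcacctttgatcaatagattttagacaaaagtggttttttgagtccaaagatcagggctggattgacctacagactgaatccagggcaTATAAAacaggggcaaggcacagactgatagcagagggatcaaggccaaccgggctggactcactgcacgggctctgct
Sst: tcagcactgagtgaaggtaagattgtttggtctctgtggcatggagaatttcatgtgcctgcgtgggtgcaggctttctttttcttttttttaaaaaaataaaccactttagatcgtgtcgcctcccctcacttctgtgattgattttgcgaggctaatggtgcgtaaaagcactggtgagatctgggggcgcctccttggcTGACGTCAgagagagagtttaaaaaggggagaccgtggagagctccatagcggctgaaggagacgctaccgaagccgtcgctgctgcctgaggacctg
Syn1: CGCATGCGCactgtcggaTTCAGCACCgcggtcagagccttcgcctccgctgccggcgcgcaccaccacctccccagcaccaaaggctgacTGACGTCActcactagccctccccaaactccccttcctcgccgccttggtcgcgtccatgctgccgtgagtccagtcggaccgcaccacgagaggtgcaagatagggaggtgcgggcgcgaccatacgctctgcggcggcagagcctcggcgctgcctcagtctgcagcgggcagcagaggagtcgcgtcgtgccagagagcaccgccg

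The levels of these genes lay far apart in the 2 tissues. Levels are given as rescaled FPKM, that is, fragments relative to gene length and to a library size taken over these 6 libraries. In the 3 liver libraries Fabp1 stood at 7462, 7351 and 7380 FPKM, and in the 3 brain libraries at 0, 0 and 2.18. G6pc stood at 235, 146 and 116 FPKM in liver and at 0.0273, 0 and 0.0415 in brain. Both were high in every liver library, at or near 0 in brain, and did not overlap between the tissues. Sst stood at 228, 247 and 210 FPKM in brain and at 0.115, 0 and 0 in liver, where a single read was counted over the 3 libraries. Syn1 stood at 103, 87.2 and 101 FPKM in brain and at 0.208, 0.146 and 0.166 in liver. The brain values of each were alike and far above the liver values.

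Most genes that could be tested differed between the tissues. Of the 52636 genes, 18166 reached 10 reads in 3 or more libraries and were tested with limma on log2(FPKM + 0.1). A gene is said to have been called where its Benjamini-Hochberg adjusted p was under 0.05, and log2 fold changes are brain minus liver, given with their limma standard error (SE). In brain 8832 genes were called higher, 48.6% of those tested, and in liver 6423, or 35.4%. The split depended on how the libraries were put on one scale: with plain library totals 11852 genes were called higher in brain and 3855 in liver. With median-of-ratios scaling 57.9% of the calls were higher in brain, against 75.5% with plain totals and 49.6% with the upper quartile. The median log2 fold change of all tested genes was 0.32, and plain totals moved it up by 0.78. Because most genes were called, those called and at least 8-fold different are used below to mark large differences, not absence from the other tissue. Of these, 3082 were higher in brain, 17.0% of tested genes, and 1607 in liver, 8.85%. A pseudocount of 1 FPKM in place of 0.1 lowered these counts to 1249 and 985. A pseudocount of 0.01 FPKM raised them to 4394 and 1823, and limma's voom method to 4401 and 1833. The first principal component separated the tissues and held 97.8% of the variance, and the levels of 85.9% of tested genes did not overlap between tissues. Fewer cells of a type and less RNA per cell cannot be told apart in these bulk samples.

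**Figure D1:**
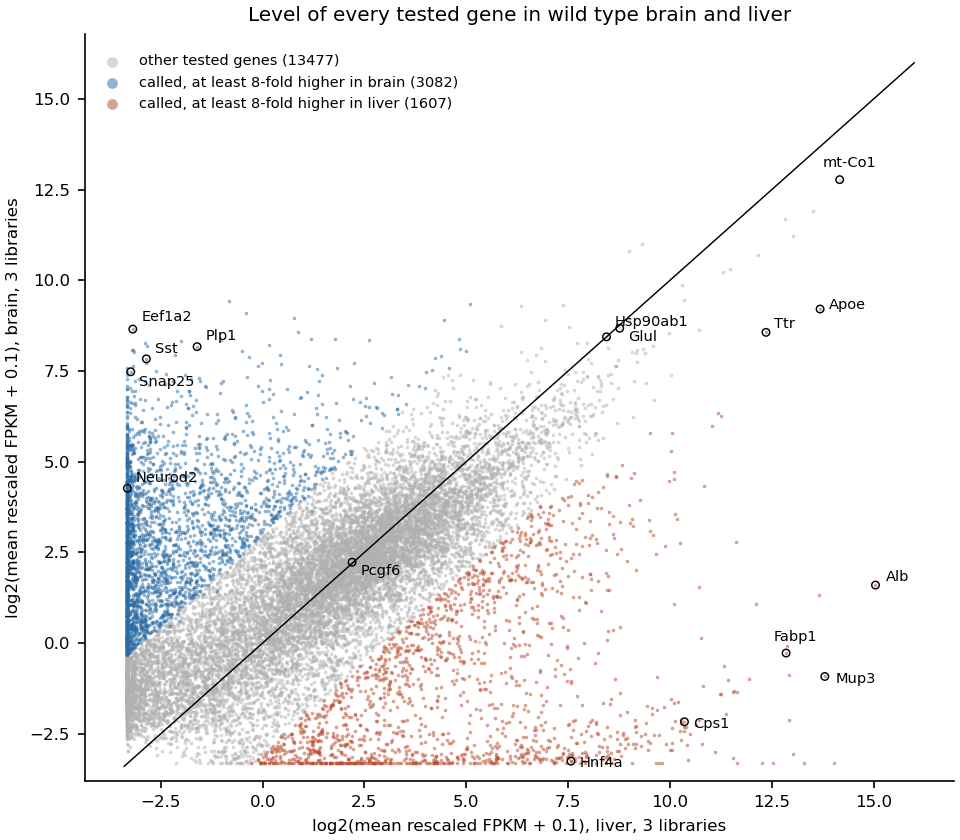
Mean level of each of the 18166 tested genes in WT liver (x axis) and WT brain (y axis), as log2(rescaled FPKM + 0.1) over 3 libraries each, with the line of equal level. The 3082 genes at least 8-fold higher in brain lie towards the left, many of them at the edge where liver levels are 0, whereas the 1607 genes at least 8-fold higher in liver reach much higher levels, up to Alb.

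Liver messenger RNA was concentrated in few genes. The most abundant 182, 202 and 199 genes made up 50% of the reads in the 3 liver libraries, against 1176, 1202 and 1193 genes in the brain libraries. The 10 most abundant genes took 17.1% to 18.3% of liver reads and 4.64% to 4.83% of brain reads. At least 10 reads were found for 13696 to 14156 genes in liver and for 17699 to 17946 in brain, at totals of 19949930 to 22073416 and 22022320 to 23183662 reads. The library sizes used for scaling were 14551200 to 16580700 in liver and 29618600 to 30392000 in brain. A gene of the same length and FPKM therefore had fewer reads in liver, and these gene counts are not at equal depth. The 30 plasma protein genes of the list described next took 12.9% to 14.5% of liver reads. Alb, which encodes serum albumin, alone took 5.09% to 6.54%. The major urinary proteins (Mup) are pheromone carriers made by male liver. The 21 genes with a symbol of Mup and a number took 5.95%, 3.53% and 3.10% of the reads of liver libraries 1 to 3.

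The proteins that hepatocytes release into plasma were higher in liver without exception on the list used. All 30 plasma protein genes were tested, were called higher in liver and passed 8-fold, with a median log2 fold change of -12.4. Alb (chr5:90460897-90476602 on mm10) stood at 29800, 35310 and 36550 FPKM in liver and at 0.01405, 0.0432 and 8.72 in brain. It was high in every liver library, and of the brain libraries library 3 was the highest by far. Its log2 fold change was -15.97 ± 1.60 (limma, adjusted p = 7.34e-05). Apoa2, an apolipoprotein of high-density lipoprotein, stood at 13930, 11960 and 13260 FPKM in liver and 1.103, 1.195 and 4.98 in brain. Ahsg, the plasma protein fetuin-A, stood at 7019, 7560 and 8562 and 0, 0.0229 and 1.29. The smallest difference in the list was that of Ttr, the thyroid hormone carrier transthyretin, at 5256 ± 129 FPKM in liver (SD, n = 3) and 379 ± 71.9 in brain, or 13.9-fold. Apoe, the main lipid carrier of brain as well as a liver product, had 13040, 12630 and 13920 FPKM in liver and 585, 638 and 553 in brain. It was high in all 6 libraries and 22.3-fold higher in liver.

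The largest differences of the whole comparison belonged to liver. Mup7 stood at 23130, 14380 and 12410 FPKM in liver with no read in brain, which puts it at least 171700-fold higher in liver against a floor of 3 reads per library. Mup12 also had no brain read and stood at 15330, 8123 and 6764 FPKM, and Mup17 at 10350, 5375 and 1929. All 3 were highest in liver library 1 and lowest in liver library 3. Mup genes, like the Serpina1 genes, are near-identical copies, so reads could be split among them and the values of single copies are uncertain. Serpina1e, an alpha-1-antitrypsin gene, had 8396, 7721 and 9020 FPKM in liver and 3 reads over the brain libraries, a ratio of 406000 with a 95% counting interval of 138900 to 1969000. The other genes in the 10 largest liver differences were Alb, Mup3, Serpina3k, Gm21320, Ahsg and Fabp1. Gm21320 lies between Mup12 and Mup17 on chromosome 4 and was not counted in the Mup share of reads above.

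The clotting system, urea synthesis and glucose output followed the same direction. Of 20 coagulation and fibrinolysis genes 18 were called higher in liver and 2 in brain, with a median of -9.46. F2, prothrombin, stood at 543 ± 30.6 FPKM in liver (SD, n = 3), Plg, plasminogen, at 1240 ± 32.3, and Proc, protein C, at 461 ± 36.2; all 3 were under 0.4 FPKM in each brain library. The 2 genes higher in brain were F3, the tissue factor that starts clotting, at 13.7, 11.9 and 14.3 FPKM in brain against 1.01, 1.48 and 1.56 in liver, and Plat, the tissue plasminogen activator, at 4.86, 4.59 and 4.82 against 0.02202, 0.135 and 0.146. Their log2 fold changes were 3.23 ± 0.17 and 4.66 ± 0.28. All 30 urea cycle and amino acid breakdown genes were called higher in liver, with a median of -10.2. Tat, tyrosine aminotransferase, had 2203, 1811 and 1287 FPKM in liver, Gnmt, glycine N-methyltransferase, 1754, 1717 and 1725, and Mat1a, the S-adenosylmethionine synthetase of hepatocytes, 1537, 1549 and 980. In brain Gnmt stood at 1.004 ± 0.194 FPKM and the other 2 at or under 0.3.

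All 17 genes of gluconeogenesis, glycogen and fructose use were called higher in liver, with a median of -7.91 and 16 past 8-fold. Pck1, the rate-limiting enzyme of gluconeogenesis, stood at 1733, 1013 and 1173 FPKM in liver and 0, 0 and 0.263 in brain. Ketone body genes were divided: of 10 genes 7 were called higher in liver, 2 in brain and 1 in neither, and with plain library totals 5 in liver and 3 in brain. Oxct1, which activates ketone bodies for burning, had 57.8, 56.1 and 56.96 FPKM in brain and 0.891, 1.68 and 1.395 in liver, a log2 fold change of 5.37 ± 0.21. Slc16a3, a monocarboxylate transporter, was the other gene higher in brain, at 0.589 ± 0.0432 against 0.0893 ± 0.03699 FPKM.

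Bile and drug metabolism genes were higher in liver with 3 exceptions. All 16 bile acid and hepatocyte transporter genes were called higher in liver past 8-fold, with a median of -9.91. Slc27a5, which activates bile acids, had 495 ± 17.1 FPKM in liver (SD, n = 3), Slc27a2, a fatty acid and bile acid ligase, 439 ± 34.9, and Slc10a1, the bile acid uptake transporter, 354 ± 39.8. Of 20 cytochrome P450 genes 17 were called higher in liver, led by Cyp2e1, which oxidises ethanol, at 3331, 3170 and 3144 FPKM in liver and 0.0152, 0.0782 and 0.775 in brain. The median of the 20 was -10.6, or -11.1 with the 2 genes at 0 reads in the lower tissue set at their bound. The 3 called higher in brain were Cyp4x1 at 2.303, 2.19 and 2.62 FPKM with no liver read, at least 52.3-fold, Cyp2j9 at 5.86, 5.59 and 5.72 against 3.95, 1.699 and 2.37, and Cyp1b1 at 0.565, 0.665 and 0.926 against 0.0938, 0.0941 and 0.0829.

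Regulators and hormones of the hepatocyte moved the same way. All 20 hepatocyte transcription factors were called higher in liver, with a median of -6.07, or -6.18 with 2 genes at their bound. Hnf4a, the nuclear receptor central to hepatocyte identity, stood at 189, 191 and 190 FPKM in liver and 0, 0 and 0.0138 in brain. Cebpa, a factor of hepatocytes and fat cells, stood at 247, 258 and 281 and 3.43, 3.92 and 3.46. All 18 tested genes of the 20 on the list of liver hormones, binding proteins and receptors were called higher in liver, with a median of -6.40, or -6.72 with 1 gene at its bound. Of these Agt, the precursor of angiotensin, kept 25.6, 23.3 and 23.6 FPKM in brain against 443, 415 and 378 in liver. Iron genes were divided, with 11 of 14 tested called higher in liver and 2 in brain, against 9 and 5 with plain library totals. Hamp, the iron hormone hepcidin, varied among the liver libraries at 4420, 2994 and 1792 FPKM, while Fth1, the ferritin heavy chain, stood at 1307, 1227 and 1256 in liver and 944, 966 and 899 in brain. The log2 fold change of Fth1 was -0.43 ± 0.09 and turned to 0.41 with plain library totals. Bmp6, which induces hepcidin, and Heph, a ferroxidase, were the 2 called higher in brain, at log2 fold changes of 0.79 ± 0.23 and 1.49 ± 0.23. With the upper quartile Bmp6 moved to 0.44 and was not called.

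**Figure D2:**
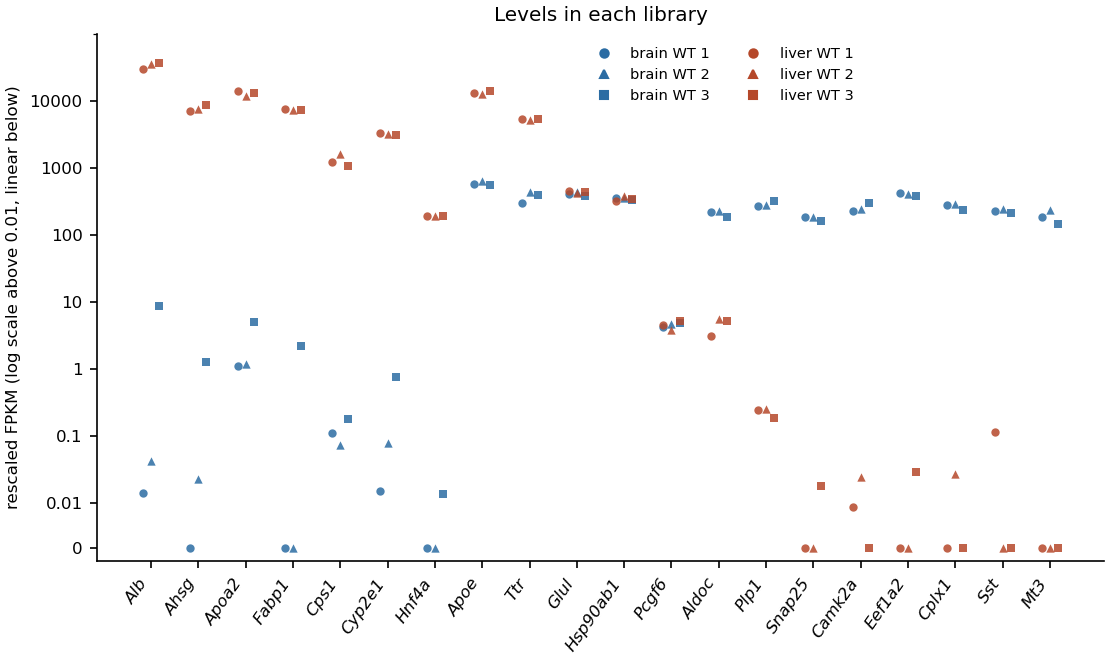
Rescaled FPKM of 20 genes in each of the 3 brain libraries (blue) and 3 liver libraries (red), on a log axis that is linear below 0.01. Alb, Ahsg, Fabp1 and Cyp2e1 are under 0.1 FPKM in brain libraries 1 and 2 and higher in brain library 3 (Alb 0.01405, 0.0432 and 8.72), whereas Glul, Hsp90ab1 and Pcgf6 overlap between tissues.

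In brain, the release machinery of the synapse stood out against liver almost as a whole. Of 27 synaptic vesicle and release genes 26 were called higher in brain, all 26 past 8-fold, with a median log2 fold change of 8.27, or 8.48 with 3 genes at their bound. Cplx1, complexin, which clamps vesicle fusion, stood at 284, 290 and 238 FPKM in brain and 0, 0.0276 and 0 in liver. Dnm1, the dynamin of synaptic vesicle retrieval, stood at 192, 180 and 171 and 0.105, 0 and 0.08099, and Snap25, a SNARE protein of neurons, at 188, 184 and 163 and 0, 0 and 0.0179. Over the 3 liver libraries Cplx1 had 1 read, Snap25 2 and Dnm1 15, against 53248, 108939 and 85370 in brain. The exception was Sypl, a synaptophysin relative found in many tissues, at 9.17, 9.26 and 8.78 FPKM in liver and 3.94, 3.78 and 3.88 in brain, -1.21 ± 0.07 on the log2 scale.

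Receptors and channels were higher in brain without exception. All 23 glutamate receptor genes were called higher in brain past 8-fold, with a median of 6.27, and 7.21 with the 9 genes that had no liver read set at their bound. Gria1, an AMPA receptor subunit, stood at 60.02, 56.98 and 55.6 FPKM in brain with 1 read or none in any liver library, Gria2 at 29.5, 29.01 and 32.7 and Grin1, the common NMDA receptor subunit, at 32.6, 28.4 and 32.1. All 20 GABA and glycine receptor genes were called higher in brain, 19 past 8-fold, with a median of 6.41. Gabbr1, a GABA-B receptor subunit, led at 82.7 ± 3.504 FPKM (SD, n = 3), and Glrb, the glycine receptor beta subunit, stood at 40.1 ± 1.63. All 26 voltage-gated channel genes were called higher in brain past 8-fold, with a median of 6.58 and, with the 10 genes without a liver read at their bound, 7.04.

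Postsynaptic and structural genes of neurons were higher in brain with a single exception. Of 20 postsynaptic genes 19 were called higher in brain, with a median of 5.76, or 5.82 with 1 gene at its bound. Nrgn, neurogranin, a calmodulin-binding protein of dendrites, stood at 565, 501 and 573 FPKM in brain and 0.615, 0.374 and 0.961 in liver, and Camk2a, the kinase of synaptic plasticity, at 229, 243 and 301 and 0.00921, 0.0242 and 0. The member not called was Homer2, a scaffold protein, at -0.13 ± 0.10, named after its value was seen. Its call rested on the scale: with plain library totals Homer2 was called higher in brain at 0.68, and with the upper quartile higher in liver at -0.50. All 20 cytoskeleton and axon growth genes were called higher in brain, with a median of 8.68, the highest of the lists with a tested member. Stmn3, a microtubule regulator, stood at 313, 332 and 280 FPKM, Kif5a, a neuronal kinesin, at 301, 274 and 310, and Uchl1, a ubiquitin hydrolase of neurons, at 235, 208 and 193. All 20 neuropeptide genes were called higher in brain past 8-fold with a median of 6.34, and 5.77 with the 15 genes without a liver read at their bound. Cck, cholecystokinin, had 133, 126 and 126 FPKM in brain and no read in liver, and Penk, proenkephalin, had 82.5, 72.98 and 68.3 and 0, 0.222 and 0.

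The 10 largest differences towards brain, among genes with at least 10 FPKM there, included those of Eef1a2, Ndrg4, Cplx1, Camk2a, Stmn3, Mt3, Pcsk1n, Ddn and Sst. Eef1a2 (chr2:181147653-181157014 on mm10), the translation elongation factor of neurons and muscle, led with 422, 405 and 383 FPKM in brain and 1 read over the 3 liver libraries. That is a ratio of 40010, with a 95% counting interval of 7182 to 1581000. Mt3, the metallothionein of brain, stood at 187, 237 and 146 FPKM and had no liver read, at least 1067-fold. Ddn, a protein of dendrites, stood at 180, 162 and 190, also with no liver read, at least 3494-fold.

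Transmitter metabolism was divided between the tissues. Of 23 genes of transmitter synthesis, transport and breakdown 17 were called higher in brain, 5 in liver and 1 in neither, with a median of 3.68, or 3.91 with 9 genes at their bound. Liver carried the breakdown enzyme Maob, a monoamine oxidase, at 86.1, 86.2 and 90.2 FPKM against 7.102, 6.07 and 6.38 in brain. Gls2, the liver glutaminase, stood at 166, 136 and 112 and 5.304, 5.15 and 5.69. Ddc, which makes dopamine and serotonin from their precursors, and Abat, which breaks down GABA, were also called higher in liver, at log2 fold changes of -2.13 ± 0.17 and -0.68 ± 0.13, and are named after their values were seen. With plain library totals Abat moved to 0.16 and was not called. Glul, glutamine synthetase, which serves ammonia removal in liver and glutamate clearance in astrocytes, was not called. It stood at 410, 434 and 386 FPKM in brain and 459, 418 and 431 in liver, and these values overlapped. This held on the scale used here, and with plain library totals Glul was called higher in brain at 0.75.

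All 24 transcription factors of brain cells were called higher in brain past 8-fold, with a median of 6.19, or 6.75 with the 13 factors without a liver read at their bound. Olig1, a factor of oligodendrocytes, stood at 48.3, 42.5 and 48.9 FPKM in brain and 3.08, 1.56 and 1.38 in liver, Egr1, an activity-induced factor, at 39.5, 31.7 and 39.3 and 1.47, 1.695 and 3.05, and Zic1, a factor of cerebellar neurons, at 33.9, 32.4 and 21.4 and 0.0121, 0 and 0. RNA-binding regulators of splicing and editing separated into 15 genes called higher in brain and 4 in liver, with a median of 4.89, or 5.19 with 4 genes at their bound. Rbfox1, a splicing factor of neurons and muscle, stood at 60.5, 55.8 and 61.4 FPKM in brain without a liver read. On the liver side were A1cf at 55.3, 46.9 and 38.9 and Apobec1 at 6.31, 5.87 and 10.1 FPKM, which together edit the Apob message, and Esrp2, an epithelial splicing factor, at 38.5, 31.5 and 33.01. In brain these 3 stood at 0.0201 ± 0.0202, 0.399 ± 0.04003 and 0.0256 ± 0.004499 FPKM (SD, n = 3).

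The REST repressor and its partners showed no common direction. Of 10 genes 4 were called higher in brain, 5 in liver and 1 in neither, with a median of -0.18. With plain library totals 7 were called higher in brain and 2 in liver, and the median turned to 0.61. Rest itself, named after its value was seen, stood at 4.76, 3.87 and 4.31 FPKM in liver and 0.893, 0.846 and 0.995 in brain, a log2 fold change of -2.12 ± 0.12. Ctdsp1, a phosphatase of the same system, stood at 71.05, 58.2 and 57.9 and 6.92, 7.03 and 6.91. Rcor2, a corepressor, was higher in brain, at 2.88, 2.22 and 2.15 against 0, 0.0385 and 0.0581 FPKM.

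**Figure D3:**
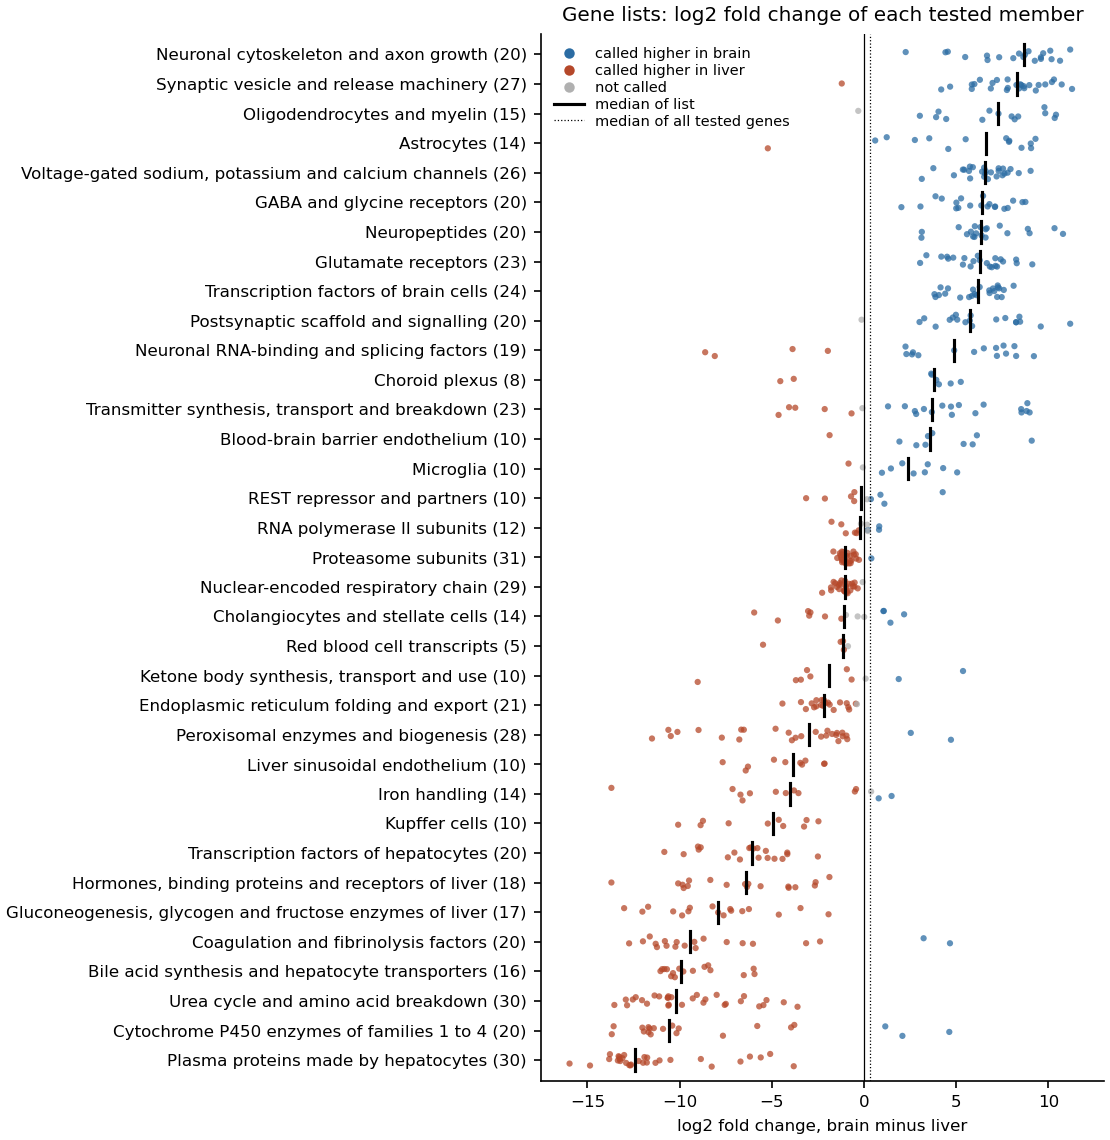
Log2 fold change (brain minus liver, x axis) of every tested member of the gene lists with at least 5 tested members, ordered by list median, with the number tested in brackets. Blue and red points were called higher in brain and in liver, grey points were not called, and the black bars are medians, from -12.4 for plasma proteins to 8.68 for the neuronal cytoskeleton.

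Paralogous genes were often divided between the tissues. The members of a pair below are related by family and need not do the same work. In 33 pairs of related genes, each with a liver form and a brain form by textbook knowledge, the log2 fold change of the brain form exceeded that of the liver form 33 times. The difference of the log2 fold changes ranged from 4.23 for the cadherins Cdh1 and Cdh2 to 18.5 for the glycosyltransferases Ugt2b1 and Ugt8a. In 28 pairs each form was called higher in its own tissue, although 3 of the liver forms, Eno1, Dnm2 and Myo5b, turned to 0.56, 0.01 and 0.30 with plain library totals, and in 32 pairs the brain form was the more abundant per length in brain and the liver form in liver. The pairs were listed because of this known division, so the counts describe these genes and are not a sample of all paralogs.

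Of the 16 listed pairs of metabolic gene families 15 crossed, that is, each form was called higher in its own tissue. Their median difference was 12.9. Among pyruvate kinases, Pklr stood at 125 ± 50.5 FPKM in liver and 0.0275 ± 0.0299 in brain, and Pkm at 3.45 ± 1.096 and 193 ± 0.392 (SD, n = 3). Arginases followed, with Arg1 of the urea cycle at 1158, 1102 and 1010 FPKM in liver and Arg2 of mitochondria at 1.797, 1.61 and 1.92 in brain. Lactate dehydrogenases divided less fully: Ldha stood at 286 ± 44.1 in liver and 54.9 ± 2.25 in brain, and Ldhb at 1.27 ± 0.443 and 205 ± 4.11. The pair that did not cross was that of the phosphofructokinases, where Pfkl, the liver form, was itself higher in brain, at 22.1, 21.2 and 20.4 FPKM against 9.72, 9.297 and 9.95, and matched its brain relative Pfkp at 20.9, 21.2 and 21.2.

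Membrane proteins crossed in 6 of 7 pairs and vesicle and motor proteins in 6 of 9, with median differences of 12.1 and 8.13. Slc2a2, the glucose transporter of hepatocytes, stood at 70.9, 98.6 and 83.1 FPKM in liver and 0.0171, 0.0117 and 0.0116 in brain, and its neuronal relative Slc2a3 at 0.0474, 0.0833 and 0.0922 and 16.9, 16.9 and 16.7. In the trafficking group the widely used form was often retained in brain: Kif5b, Unc13b and Dync1i2 were called higher in brain, at log2 fold changes of 1.56 ± 0.07, 1.39 ± 0.24 and 0.60 ± 0.06. Cdh2, N-cadherin, was the brain form called higher in liver, at 17.1, 16.7 and 13.8 FPKM against 11.6, 11.02 and 11.9, -0.46 ± 0.10 on the log2 scale, and turned to 0.38 with plain library totals. The polypyrimidine tract-binding proteins, which repress neuronal exons, exchanged Ptbp1 at 17.1 ± 1.27 in liver and 4.31 ± 0.184 in brain for Ptbp2 at 1.44 ± 0.243 and 7.39 ± 0.341.

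**Figure D4:**
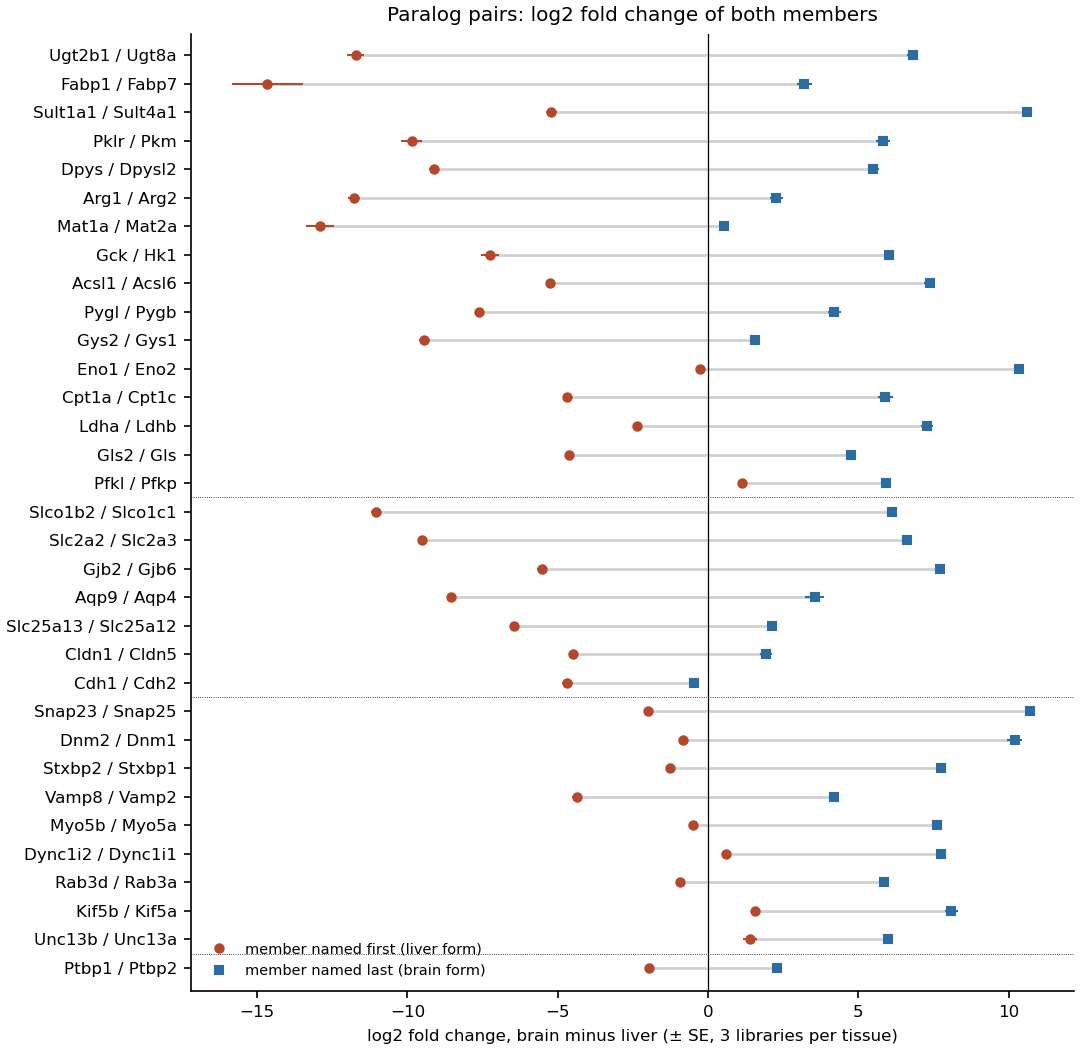
Log2 fold change (brain minus liver, x axis, bars are SE over 3 libraries per tissue) of both members of 33 paralog pairs, grouped by dotted lines into metabolic gene families, membrane proteins, trafficking proteins and RNA-binding proteins. The brain form lies to the right of the liver form in all 33 pairs, and the liver forms of 4 pairs were themselves called higher in brain.

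Cell machinery used by every cell differed by less. Of 31 proteasome genes 30 were called higher in liver and 1, Psmc5, in brain, with log2 fold changes of -1.66 to 0.40 and a median of -1.02. With plain library totals 15 were called higher in liver and 7 in brain. Of 29 nuclear genes of the respiratory chain 28 were called higher in liver and none in brain, with a median of -1.03, none past 8-fold. With plain library totals 14 were called higher in liver and 5 in brain, at a median of -0.20. RNA polymerase II subunits were mixed, with 3 called higher in brain, 6 in liver and 3 in neither. Their median of -0.23 turned to 0.60 with plain library totals, which called 9 higher in brain and 2 in liver. Peroxisome genes showed larger differences, with 26 of 28 called higher in liver and a median of -3.01. Cat, catalase, stood at 1260, 1084 and 1115 FPKM in liver and 9.998, 9.51 and 12.1 in brain, and Uox, urate oxidase, at 567, 657 and 501 and 0.0723, 0.0472 and 0.2003. The 2 peroxisomal genes higher in brain were Dao, which oxidises D-serine, at 2.92, 3.01 and 1.82 FPKM with no liver read, and Abcd2, a fatty acid transporter, at 6.596, 6.08 and 5.93 against 0.746, 1.19 and 1.08. Of 21 tested genes of folding and export in the endoplasmic reticulum 20 were called higher in liver and none in brain, with a median of -2.18. With plain library totals 15 were called higher in liver, at a median of -1.34. The liver libraries varied in this group: it took 0.502%, 0.667% and 0.864% of the reads of liver libraries 1 to 3, and the chaperone Hspa5 stood at 177, 313 and 492 FPKM there. The upper quartile moved these lists the other way, towards liver. Its medians were -1.39 for the proteasome, -1.40 for the respiratory chain, -0.60 for RNA polymerase II and -2.55 for the endoplasmic reticulum. Called higher in liver with it were 30, 29, 7 and 21 of their genes.

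Mitochondrial transcripts held 5.25% to 5.66% of liver reads and 4.04% to 4.32% of brain reads. Messages of the mitochondrial genome were called higher in liver, other than mt-Nd3 at 0.37 ± 0.20 and mt-Nd4l at -1.22 ± 0.66 on the log2 scale, which were not called and are named after their values were seen: mt-Co1 stood at 18810, 18180 and 18270 FPKM in liver and 7549, 6567 and 6934 in brain, and mt-Cytb at 12350, 11340 and 11600 and 4120, 3683 and 3687. The 2 mitochondrial ribosomal RNAs went the other way, with mt-Rnr1 at 1909, 2369 and 1852 FPKM in brain and 738, 494 and 681 in liver and mt-Rnr2 at 1693, 2120 and 1595 and 631, 368 and 534. Libraries were made from poly-A RNA, and how much of these ribosomal RNAs was carried through that selection was not tested. The mitochondrial differences are given on the median-of-ratios scale. Plain library totals moved the median log2 fold change of all tested genes up by 0.78. For 363 genes the 95% interval of the log2 fold change lay within 0.3 of 0, that is, near-equal levels on this scale. The most abundant were Glul, Cox8a of the respiratory chain, the chaperone Hsp90ab1 at 351, 358 and 334 FPKM in brain and 316, 384 and 344 in liver, the RNA helicase Ddx5 at 113, 113 and 112 and 108, 108 and 109, and the phosphatase Ppp1ca. With plain library totals all 5 were called higher in brain at up to 0.92 for Ppp1ca, and with the upper quartile all 5 were called higher in liver, from -0.29 for Ppp1ca to -0.46 for Glul. Near-equal therefore holds on the median-of-ratios scale. Pcgf6, the gene targeted elsewhere in the series, stood at 4.19, 4.75 and 4.83 FPKM in brain and 4.55, 3.77 and 5.12 in liver. Its log2 fold change was 0.04 ± 0.13 (limma, adjusted p = 0.777), with a 95% half-width of 0.31.

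Most marker genes of glia were higher in brain. Of 15 oligodendrocyte and myelin genes 14 were called higher in brain and 1 in neither, with a median of 7.29, or 8.00 with 4 genes at their bound. The last was called higher in brain with plain library totals and higher in liver with the upper quartile. Mbp, myelin basic protein, stood at 308, 319 and 335 FPKM in brain and 0.164, 0.194 and 0.09396 in liver, and Mobp at 127, 129 and 155 with no liver read. Of 14 astrocyte genes 13 were called higher in brain, among them Aldoc, an aldolase, at 217, 229 and 185 FPKM in brain and 3.08, 5.58 and 5.27 in liver. The exception was Aldh1l1, a folate enzyme used as an astrocyte marker, at 323, 416 and 346 FPKM in liver and 9.39, 9.64 and 9.69 in brain, or -5.22 ± 0.10 on the log2 scale.

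Marker lists of resident macrophages mostly divided between the tissues. Of 10 microglia genes 8 were called higher in brain, among them Tmem119, a surface protein of microglia, at 7.42, 7.42 and 6.803 FPKM in brain and 0.623, 0.521 and 0.813 in liver. All 10 Kupffer cell genes were called higher in liver, with a median of -4.92. Clec4f, a lectin of Kupffer cells, stood at 37.6, 51.5 and 72.8 FPKM in liver and 0, 0 and 0.0406 in brain. Csf1r, the receptor both kinds of macrophage need, overlapped between tissues at 9.68, 9.41 and 11.7 and 6.39, 11.99 and 15.8. Sall1, a nuclear factor on the microglia list, was called higher in liver, at 9.61, 5.21 and 6.14 FPKM against 3.42, 3.597 and 4.19, but not with plain library totals, at -0.02.

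Marker lists of blood vessel cells also mostly divided between the tissues. Which cells of the whole tissue carried these transcripts was not tested. Of 10 blood-brain barrier endothelium genes 9 were called higher in brain, among them Slc2a1, the glucose transporter of the barrier, at 31.9, 36.5 and 33.99 FPKM against 5.35, 3.77 and 5.09. Mfsd2a, the lipid transporter of the barrier, was called higher in liver, at 55.7, 41.8 and 21.9 FPKM against 9.45, 10.8 and 10.1. All 10 genes of liver sinusoidal endothelium were called higher in liver, with a median of -3.86. Of 14 tested genes of cholangiocytes and stellate cells 7 were called higher in liver, 4 in brain and 3 in neither (9 and 3 in liver and brain with the upper quartile), those of brain including Sox9, also a factor of glia, at 4.64, 3.45 and 4.54 against 1.06, 0.846 and 0.676 FPKM. Choroid plexus genes were called higher in brain for 6 of 8, with Clic6, a chloride channel protein, at 3.69, 4.39 and 4.1 FPKM in brain. Ttr and Aqp1, a water channel, were called higher in liver.

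Blood, pituitary, muscle and pancreas were traced as tissues that a dissection could carry. Haemoglobin varied within each tissue: Hbb-bs stood at 174, 224 and 104 FPKM in brain and 359, 227 and 480 in liver, and brain library 3 was the lowest. Hba-a1 and Hba-a2 are near-identical copies, and Hba-a1 was not called at -0.87 ± 0.39. Of 6 pituitary hormone genes 2 were tested and called higher in brain, Pomc at 3.44, 2.203 and 2.08 FPKM and Tshb at 0.455, 0.245 and 0.294, and the summed level of the list was 5.07, 2.84 and 2.92 FPKM in brain libraries 1 to 3. Skeletal muscle genes summed to 3.22 to 4.10 FPKM in brain and 0.518 to 0.625 in liver, and Acta1, skeletal actin, had 3.11, 2.704 and 3.07 FPKM in brain and no liver read. Exocrine pancreas genes summed to 18.4 to 36.4 FPKM in liver and 1.07 to 1.54 in brain, of which Cela1, an elastase, held 35.4, 29.5 and 17.01 in liver. The part of such tissue in these values was not tested.

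Several abundant liver transcripts stood higher in brain library 3 than in the other 2 brain libraries. The summed read share of genes higher in liver was about as high in brain library 2. These sums include genes with sizeable brain levels, such as Ttr and Apoe. Albumin reads made up 0.00277% of the reads of brain library 3, against 4.31e-06% and 1.36e-05% in brain libraries 1 and 2. Fabp1 and Serpina3k had reads in brain library 3 and none in the other 2. Across 1076 genes at least 8-fold higher in liver with at least 10 FPKM there, the share of reads was 1.33%, 1.41% and 1.40% in brain libraries 1 to 3, and the 30 plasma protein genes took 0.0654%, 0.0883% and 0.0888%. The plasma protein genes summed to 354, 491 and 474 FPKM in these libraries, of which Ttr alone held 299.9, 440.5 and 396.5. Of the 1010 genes out of the 1076 with a read in brain, brain library 3 was the highest of the 3 for 49.5%, brain library 1 for 23.7% and brain library 2 for 26.8%. Of the 1076 genes 88 had no read in brain library 3, against 206 and 211 in the other 2. The 7 spermatid genes, which mark testis, summed to 122 reads in brain library 3 and to 9 and 6 in the others. Without brain library 3, Alb was 1183000-fold higher in liver in place of 11580, Apoa2 11360 in place of 5379, and Ahsg 684800 in place of 17590, the last from 1 brain read with a 95% counting interval of 122900 to 27050000. Over the 1607 genes at least 8-fold higher in liver the fold rose by more than 1.5 times for 145 and fell by more than 1.5 times for 95, and 1575 were still called at least 8-fold. In liver, of 1202 brain genes chosen in the same way 985 had a read, and these were highest in liver libraries 1 to 3 for 23.4%, 41.2% and 35.4%.

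Genes of the 2 tissues differed in form as well as in level. Protein-coding genes at least 8-fold higher in brain had a median span of 35714 bases from start to end, against 18725 bases for those of liver and 24576 for all tested. Spans over 100 kb were found for 28.0% of the brain genes, 6.89% of the liver genes and 15.1% of all tested. Their median exonic lengths were 4553, 2824 and 4213 bases. FPKM divides by length, but a long gene gathers more reads at the same FPKM, so the read minimum of the test is met at a lower level by long genes.

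Promoters of liver genes were poorer in CpG than those of brain genes and of all tested genes. RefSeq promoters of 300 bases were matched by symbol to 68.6% of the brain genes, 68.9% of the liver genes and 69.4% of all tested genes, so these shares describe the matched genes only, and a gene may have several promoters. The ratio of observed to expected CpG had a median of 0.356 in liver promoters, 0.612 in brain promoters and 0.703 in those of all tested genes. It was above 0.6 in 28.4%, 51.4% and 61.2%, and in 73.7% of promoters of genes that differed by less than a factor of 2. A GC box, GGGCGG, was found in 38.0% of liver, 53.6% of brain and 57.4% of all tested promoters. TATAAA was found within 50 bases before the start in 5.37% of liver promoters, 2.08% of brain promoters and 1.73% of all tested ones. Over all 32851 promoters of the table the share was 2.63%. The median CpG ratio of that whole table was 0.384, with 35.8% above 0.6, and 35.7% held a GC box. On CpG and GC box liver promoters thus lay near the whole table, and those of all tested genes lay above it.

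Short motifs were unequally spread. The HNF1 part TTAATNATT was found in 3.51% of liver promoters, 0.693% of brain promoters and 0.882% of all tested, and in 1.47% of the whole table. The HNF4 element CAAAGTCCA was found in 2.08%, 0.381% and 0.522%, and in 0.475% of the table. On the brain side, the left part of RE1, TTCAGCACC, was found in 1.04% of brain promoters, or 30 of 2885, in 0.0716% of liver promoters, or 1 of 1396, and in 0.422% of all tested. The right part, GGACAGCGC, was found in 0.971%, 0.573% and 0.634%. The cAMP response element TGACGTCA was found in 2.53% of brain, 0.645% of liver and 2.78% of all tested promoters, so brain promoters held it about as often as tested promoters at large. The NRF1 part GCGCATGCG was rarer in both classes, 1.18% and 0.931%, than in all tested, 2.96%. The C/EBP palindrome TTGCGCAA was found in 0.277%, 0.215% and 0.273%. Both strands were searched, and no letters of one motif contain another in full. Base composition also differed, with a median GC content of 53.7% in liver promoters and 60.7% in brain promoters, and its part in these shares was not tested.

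**Figure D5:**
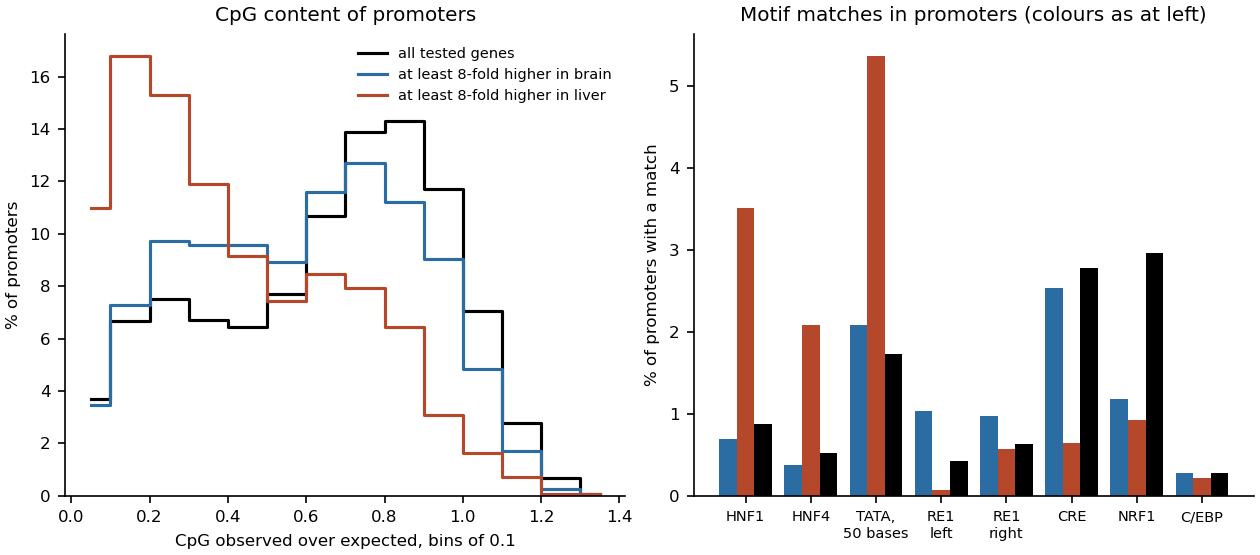
Left, distribution of the observed over expected CpG ratio (x axis) in promoters of 3 gene classes, as % of promoters (y axis); right, % of promoters of the same classes that hold each motif. Liver promoters pile up at low CpG ratios and hold the HNF1 part (3.51%), HNF4 element (2.08%) and TATAAA (5.37%) more often than brain promoters (0.693%, 0.381% and 2.08%).

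The tissue difference was repeated in 6 libraries that the wild type comparison did not use, 3 of brain and 3 of liver labelled KO and numbered 4 to 6. They come from the same strain, sex and age, by their labels. Reads of Pcgf6 were 139, 131 and 177 in WT liver and 70, 54 and 39 in KO liver, and 267, 295 and 303 in WT brain and 173, 240 and 250 in KO brain. In the KO libraries 3068 of 18116 tested genes, 16.9%, were called at least 8-fold higher in brain and 1612, 8.9%, in liver. Shared with WT were 2897 brain genes, 94.0% of the WT and 94.4% of the KO calls, and 1502 liver genes, 93.5% and 93.2%. No WT call at this size had the opposite sign in KO, while 27 brain and 31 liver calls were not tested there. Of the 625 list members called in WT, 620 were called in the same direction in KO, 5 were not called and 0 were called the other way. Aldh1l1, Mfsd2a and Oxct1, which went against their lists, did so again, at KO log2 fold changes of -5.13 ± 0.11, -2.06 ± 0.29 and 5.07 ± 0.17. Pfkl and Cdh2, which went against their form in the paralog pairs, also did so again, at 1.39 ± 0.12 and -0.43 ± 0.07. Glul was again not called, at -0.18 ± 0.11. Eno1, an enolase used in most tissues, was called higher in liver in WT at -0.28 ± 0.08 and not called in KO at -0.17 ± 0.08. Pcgf6, the targeted gene, was not called in WT at 0.04 ± 0.13 and was called higher in brain in KO at 1.05 ± 0.23.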

How the data were processed

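RNA was sequenced from poly-A selected libraries, per the labels' protocols, with a kit that does not mark strand by that description, so overlapping and antisense genes cannot be told apart. Per the submitters' processing notes, HISAT2 2.0.5, featureCounts 1.5.0-p3, DESeq2 1.16.1 and the build mm10 were used; their settings are not given in the sources used here. The authors deposited FPKM per gene and library. Multiplied by gene length, 100% of values came out as whole reads to within 0.01 reads, and these reads were used. The authors' FPKM was scaled by size factors over all 18 libraries, so FPKM was rebuilt from the reads with median-of-ratios factors over the 6 WT libraries, from 16177 genes with a read in each. The effective library sizes lay between 14551200 and 16580700 in liver and 29618600 and 30392000 in brain.

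The limma code was first tested on simulated data in which few genes changed, which does not test the scaling between tissues this different. limma 3.58.1 (R 4.3.3) was run with its trend option and tissue as the only term, two-sided, on log2(FPKM + 0.1) of genes that reached 10 reads in 3 or more libraries. The pseudocount pulls log2 fold changes of low genes towards 0, and they are no bound for genes at 0 reads. Linear folds are ratios of mean FPKM, bounds against 3 reads per library for a group at 0, or ratios of reads with an exact 95% binomial interval at 1 to 3 reads, which covers counting error only. Log2 fold changes are differences of mean log2 levels. Where 1 library stands far above the others of its group, as for Alb in brain, they can exceed the ratio of means. Tables were made with Python 3.11.15 and pandas 2.3.3.

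The members and the 39 gene lists, of 669 symbols of which 2 were not matched, were chosen with earlier results of these data known, and are described by counts and medians without a set test. Genes named are the 10 largest differences in each direction with at least 10 FPKM and no overlap, the 8 most abundant in each tissue, the 3 highest of each list with up to 3 members called against it, 33 paralog pairs, 5 near-equal genes and Pcgf6; others are marked in the text, and G6pc, Syn1 and the largest or smallest member of a list are further exceptions. Some genes that this rule names are not reported here. Promoter sequences came from a RefSeq table, matched by symbol. Scaling, pseudocount, read filter, limma's voom, the replicate number as a block and leaving out each library were tried as alternatives.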

Additional observations from a re-analysis of the deposited data

How the results depend on the processing

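The counts of genes called were within 1.5 times of the reported ones in 65 of 68 recomputed counts. The other 3 were the 3855 genes called higher in liver with plain library totals and the 1249 and 985 genes at least 8-fold higher in brain and in liver with a pseudocount of 1 FPKM. List medians were less stable: 404 recomputed medians were marked as the same, 189 as moved and 2 as reversed. For plasma proteins, coagulation, cytochrome P450, synaptic vesicle and glutamate receptor genes the median shrank with a pseudocount of 1 FPKM. It grew with 0.01 FPKM and with voom. The sizes of the list medians given above therefore hold for a pseudocount of 0.1 FPKM. Of the genes called in the reported fit, 1534 changed sign with plain totals and 256 with the upper quartile. With each library left out in turn, the calls higher in brain ranged from 8484 to 8724, those higher in liver from 6007 to 6472, and those at least 8-fold from 3021 to 3131 and from 1576 to 1651. Log2 fold changes reversed with plain totals for Fth1 (0.41), Glul (0.75), Csf1r (0.77), Polr2f (0.55), Cox6a1 (0.19), Cox8a (0.76), Mylpf (0.27), Eno1 (0.56), Dnm2 (0.01), Myo5b (0.30) and Cdh2 (0.38), and for the medians of the REST list (0.605) and the RNA polymerase II list (0.604). They reversed with the upper quartile for Polr2a (-0.17), Hsp90ab1 (-0.37), Ddx5 (-0.32), Ppp1ca (-0.29) and Pcgf6 (-0.32), and with the trimmed mean of M values for Hsp90ab1 (-0.02). The cause was not tested beyond the scale itself, which moves all genes of a library together. With 1 library left out, Csf1r ranged from -0.47 to 0.20, Hsp90ab1 from -0.10 to 0.05 and Pcgf6 from -0.10 to 0.13, all values near 0.

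Brain and liver libraries share the numbers 1 to 3. Deviations from the tissue means correlated across 15926 genes at 0.129, 0.0574 and 0.0878 for same-numbered libraries and at -0.0875 to 0.00217 for others. Each library correlated best with its own number, but the numbers were not taken as pairs. With the replicate block, 8764 and 6362 genes were called, 3083 and 1608 of them at least 8-fold.

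Genes with 0 to 3 reads in the lower tissue are limited by depth, and their folds are bounds or carry the intervals given.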
